A study of Homo sapiens with 7 samples.

Results

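The region around AP2S1 and ARHGAP35 on human chromosome 19 holds the ZNF143 loop that had the highest count among loops seen after, and not before, CTCF depletion in HEC-1-B cells. Every loop with at least 1 anchor midpoint between 47200000 and 47650000 (hg19) was taken, which gave 592 of the 135475 loops in the 7 deposited lists. The stretch was chosen by the ZNF143 counts at 0 h and 24 h of auxin, so values of that contrast are a description. HEC-1-B is a human uterine adenocarcinoma line. Loops were mapped by HiChIP, in which fixed chromatin is cut, nearby ends are joined, joined fragments are precipitated with an antibody and their ends are sequenced. Each of the 7 groups had 1 library. ZNF143, CTCF and RAD21 were each mapped in wild-type cells. CTCF and RAD21 were mapped again in ZNF143KO cells. ZNF143 was mapped again in CTCF-AID cells at 0 h and at 24 h of auxin (IAA, 500 µM by the treatment protocol). In CTCF-AID cells CTCF carries a degron tag, so that auxin leads to its breakdown. Both CTCF-AID groups carry the tag, and the labels do not say from how many clones the ZNF143KO or CTCF-AID lines came. The loss of either protein was not checked, since ZNF143 loops of ZNF143KO cells and CTCF loops of auxin-treated cells were not analysed here. No group had a replicate, so no test between groups was made and every difference below lacks a replicate check.

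CTCF binds DNA through zinc fingers and halts the cohesin ring, of which RAD21 is a subunit, as the ring enlarges a loop of chromatin. ZNF143 is another zinc-finger protein, known mainly as an activator that binds near the starts of widely expressed genes. AP2S1 encodes the small subunit of the adaptor complex that couples membrane cargo to clathrin during endocytosis. ARHGAP35 encodes a GTPase-activating protein that switches off the small GTPase RhoA and so acts on the actin skeleton. RefSeq's annotation used here is of GRCh38.p14, another build, so its gene positions were not set against the loop anchors. The names AP2S1 and ARHGAP35 are the working names of the gained loop's anchors, and whether those anchors are promoter, exon or intron was not determined here.

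The start of AP2S1 is shown because the gained loop is named after it at its upstream anchor. The sequence is RefSeq's for GRCh38.p14, chr19:46850265-46850564 on the minus strand, read 5′ to 3′ from 250 bases before the start of the gene to 50 bases after it. Capitals would mark a match to ACTACA, a part of the ZNF143 motif, or to a 12-letter part of the CTCF motif.
AP2S1: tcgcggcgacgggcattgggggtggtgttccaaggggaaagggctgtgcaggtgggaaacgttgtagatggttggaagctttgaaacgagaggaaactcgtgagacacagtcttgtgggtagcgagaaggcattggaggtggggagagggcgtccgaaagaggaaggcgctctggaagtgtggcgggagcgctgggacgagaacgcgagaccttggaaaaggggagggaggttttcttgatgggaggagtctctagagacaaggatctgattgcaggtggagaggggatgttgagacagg
Neither set of letters was in this window on either strand (0 matches each). ACTACA was in 8.46% and the part of the CTCF motif in 4.64% of 35116 promoter windows of the same length. The AP2S1 window was 57.3% G or C, and the median over all windows was 58.7%. Of the pair, AP2S1 was matched in the promoter table and ARHGAP35 is named only.

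The gained loop joined 47353329 to 47355208, called the hub site here (midpoint 47.354 Mb), to 47478365 to 47481205 (47.480 Mb), 126 kb away. Its count in the 24 h list was 95 (exact Poisson 95% interval 76.9 to 116). A count is the deposited whole number of a loop, and intervals on counts cover counting error only. Counts in the CTCF-AID lists were mostly even, at 89.5% of all loops at 0 h and 86.8% at 24 h, against 68.1% to 74.6% in the other 5 lists. In the region the shares were 85.8% and 85.9%, against 57.1% to 85.7%. If they count each read pair more than once, the counts printed for 0 h and 24 h are too high and their intervals too narrow. It ranked 39 among all 20587 loops at 24 h, and 2 among the 2288 loops whose span was within 25% of its own. In the wild-type ZNF143, CTCF and RAD21 lists, the 0 h ZNF143 list and the ZNF143KO CTCF list no loop matched it. No list holds a count under 2, and the filters behind the lists are not known, so a loop that is not listed is not shown to be absent.

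The hub site was already an anchor before CTCF was depleted, and 1 of its loops then ran to a point near the new downstream anchor. At 0 h the hub site was 47353490 to 47355208, with 89 loops. Of these, the loop nearest to the gained loop ran to 47493989 to 47495445 (47.495 Mb) with a count of 33 (22.7 to 46.3). In wild-type cells the hub site was 47353490 to 47355035, and its loop to the same 47.495-Mb site had a count of 19 (11.4 to 29.7). The downstream anchors before and after auxin were thus 14.9 kb apart from midpoint to midpoint, while the hub midpoints of 0 h and 24 h were 0.0805 kb apart. The 47.495-Mb site was an anchor of no loop at 24 h, and the 47.480-Mb site was an anchor of no loop at 0 h. Per 100000 listed counts the loop to 47.495 Mb had 38.5 in wild-type cells and 23.1 at 0 h, and the loop to 47.480 Mb had 92.3 at 24 h.

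Both downstream sites had loops beyond the one to the hub. At 0 h the 47.495-Mb site had 9 loops with a summed count of 55, of which 33 fell to the hub and 7 to the site at 47.552 Mb. At 24 h the 47.480-Mb site had 16 loops with a summed count of 133, of which 95 fell to the hub, 7 to the 47.552-Mb site, 4 to the site at 47.360 Mb and 3 to the site at 47.218 Mb. The other 12 loops had a count of 2 each. The 47.495-Mb site at 0 h and the 47.480-Mb site at 24 h had 3 partners in common, the hub, the 47.552-Mb site and a site at 49.149 Mb. The 47.480-Mb site was listed in 1 further library, RAD21 in ZNF143KO cells, where it was joined to the 47.360-Mb site with a count of 2. In that list the 47.360-Mb site was joined to 47.495 Mb as well, with a count of 2, so both downstream positions were anchors there. In wild-type cells RAD21 linked the 47.360-Mb and 47.495-Mb sites (count 2), and the 47.480-Mb site was not listed.

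Gained loops of the whole list were searched for a nearby 0 h loop of any count, whether or not it was kept at 24 h. In the whole list, 154 gained loops reached a count of 10, and 91 of them (59.1%, Wilson 95% interval 51.2 to 66.5) shared an anchor with a 0 h loop whose other anchor lay within 25 kb. In 22 of the 154 (14.3%, 9.63 to 20.7) that 0 h loop itself reached a count of 10, as at AP2S1 and ARHGAP35. Among all 11249 gained loops the share with any such 0 h loop was 26.1% (25.3 to 26.9), and among the 95 gained loops of the region it was 32.6% (24.0 to 42.6). A nearby 0 h loop that reached a count of 10 stood by 203 of the 11249 (1.80%, 1.57 to 2.07) and by 3 of the 95 (3.16%, 1.08 to 8.88). The shares were not split by the number of partners of the shared anchor. An anchor with many partners, such as the hub with 89 at 0 h, has more 0 h loops that can lie nearby.

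**Figure D1:**
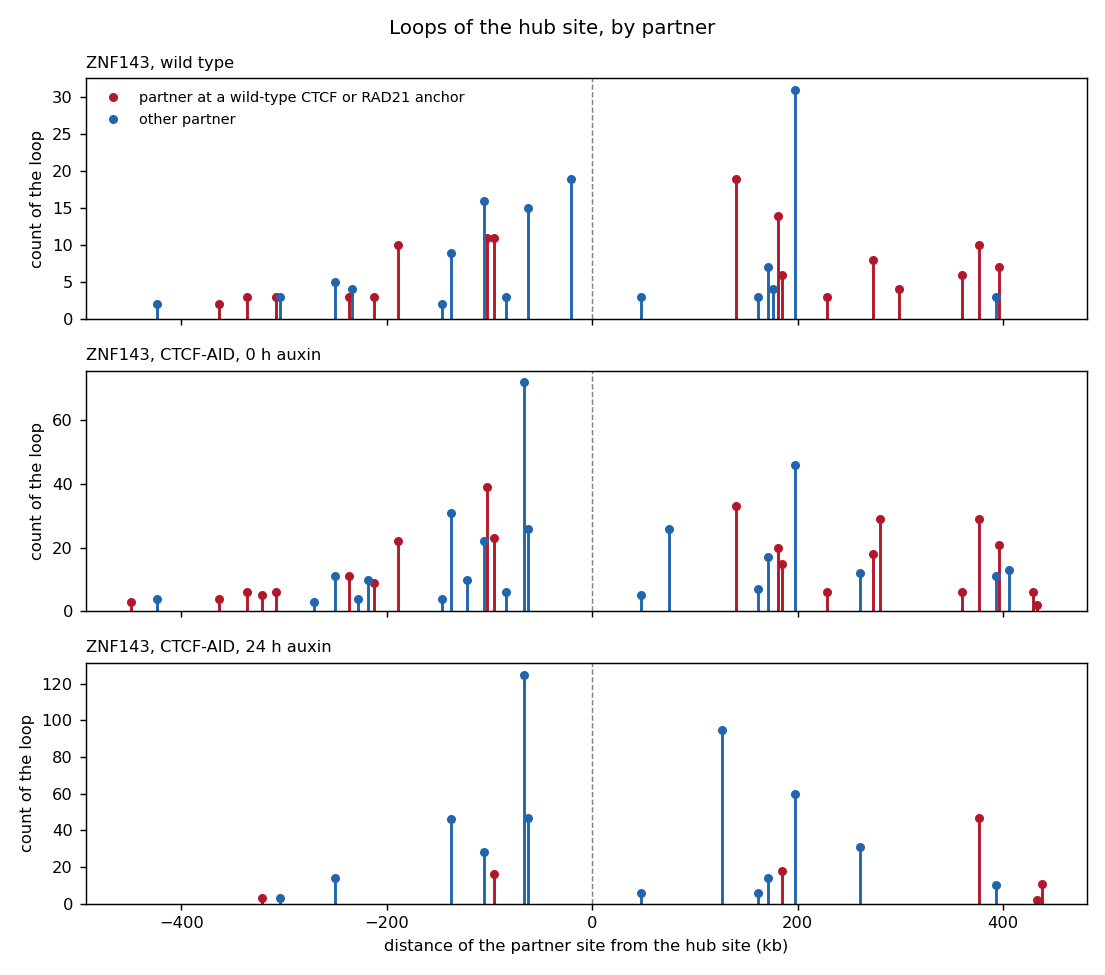
Count of each loop of the hub site (y axis, a separate scale for each panel) against the distance of its partner site in kb (x axis, negative upstream), for partners within 450 kb in the 3 ZNF143 lists, 1 library each. Red partners coincide with a wild-type CTCF or RAD21 anchor and blue ones do not. The loop with a count of 33 at 140 kb in the 0 h panel is missing at 24 h, where a loop with a count of 95 stands at 126 kb.

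The hub site was among the most connected ZNF143 anchors of the genome in all 3 ZNF143 lists. It was joined to 46 anchors in wild-type cells, 89 at 0 h and 65 at 24 h. These numbers ranked 2 of 9711 anchors, 1 of 21128 and 6 of 9324, where the median anchor had 1, 2 and 2 partners and the 99th percentile was 20, 25 and 32. Its summed counts were 283 (251 to 318), 810 (755 to 868) and 764 (711 to 820), which ranked 21, 5 and 15. They made up 60.7%, 59.0% and 64.1% of the count of all loops of the region. Partners lay on both sides, with a summed count of 399 upstream and 411 downstream at 0 h and of 359 and 405 at 24 h.

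**Figure D2:**
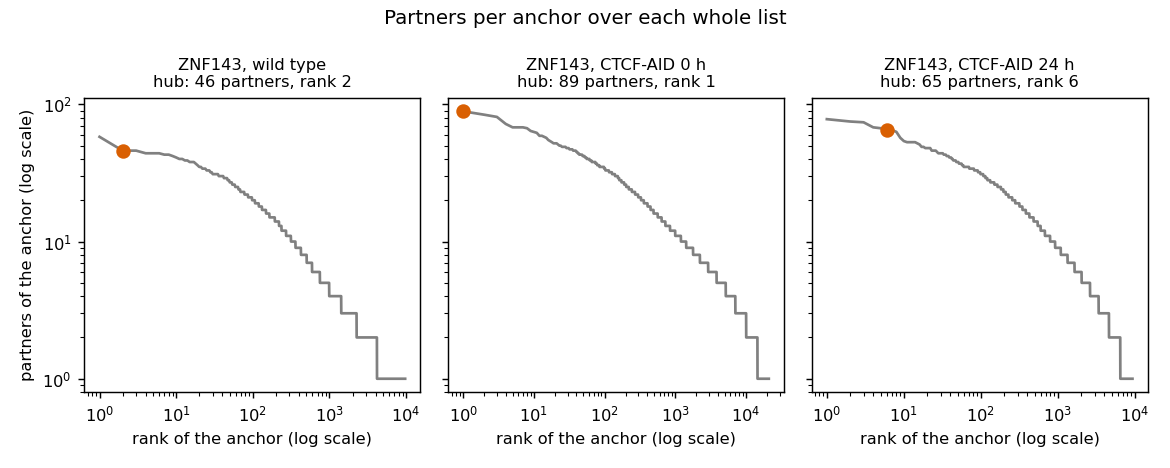
Number of partners of every anchor (y axis, log scale) against its rank by that number (x axis, log scale) in the wild-type, 0 h and 24 h ZNF143 lists, 1 library each, with the hub site as an orange point. The hub site had 46, 89 and 65 partners and ranked 2, 1 and 6.

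The hub was not an anchor of any CTCF or RAD21 loop (0 of 4 lists). Anchors of those lists flanked it instead. A site at 47343084 to 47344569 (47.344 Mb), 10.4 kb upstream, was an anchor in all 4 lists. A site at 47358937 to 47360899 (47.360 Mb), 5.65 kb downstream, was an anchor in the CTCF and RAD21 lists of wild-type cells and in the RAD21 list of ZNF143KO cells. Both flanking sites carried ZNF143 loops as well, with summed counts of 18 and 32 at 0 h against 810 for the hub between them.

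With auxin the hub lost many of its partners, and the loops it kept had on balance higher counts. Anchors that overlap between lists were merged into sites here, and a partner is such a site. Of the 89 partners at 0 h, 38 were joined to the hub at 24 h and 51 were not. The 51 held a summed count of 393 at 0 h. Over the 38 shared partners the summed count was 417 at 0 h and 582 at 24 h, with 22 higher, 11 lower and 5 equal. The 27 partners seen at 24 h alone held 182 counts, of which the loop to 47.480 Mb made up 95. The sum of all counts in the list was 143119 at 0 h and 102962 at 24 h, so the hub's summed count had a ratio of 0.943 while that of the list was 0.719. The hub's sum at 24 h takes in the 95 counts of the gained loop, by which the region was chosen. Its ratio is thus a description.

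Other well-connected sites had larger ratios than the hub. Of the 154 anchors with at least 30 partners at 0 h, 152 were listed at 24 h, and the median ratio of their summed counts at 24 h to 0 h was 1.22 (quartiles 1.01 and 1.39). The ratio was above the hub's 0.943 at 120 of them. The hub kept 42.7% of its partners, against a median of 50.0% (quartiles 42.7 and 58.0) over these anchors.

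Close to the hub, the merged sites that were no longer partners at 24 h were not anchors of other loops either. Within 300 kb, a distance chosen after the values were seen, 28 partners were joined to the hub at 0 h and 12 of them at 24 h. None of the other 16 was an anchor of any loop at 24 h (0 of 16). In the region, every 24 h anchor site apart from the hub and its flanking sites at 47.344 and 47.360 Mb was a hub partner. Loss as a partner and loss as an anchor were thus hardly separate there. Over all 0 h anchors of the list, 61.6% (61.0 to 62.3) were not listed as anchors at 24 h. For 2 of the 16, at 47.253 and 47.536 Mb, another 24 h anchor lay within the 5 kb used to match loops, so that their hub loops count as found at 24 h in the shares of loops. Over the whole reach of the hub, 33 of the 51 missing partners had no anchor at 24 h and 18 were still anchors of other loops. Those 18 held 61 of the 393 counts. In the whole 0 h list, 30438 of 40405 loops were not found at 24 h (75.3%), and at least 1 anchor was missing for 79.5% of these. In the region 179 of 267 were not found (67.0%, 61.2 to 72.4), and the share with a missing anchor was 64.8% (57.6 to 71.4). Among lost loops that reached a count of 10 at 0 h, at least 1 anchor was missing for 478 of 504 (94.8%, 92.5 to 96.5) in the whole list and for 12 of 13 (92.3%, 66.7 to 98.6) in the region.

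Partners were next split by whether they coincided with CTCF or RAD21 anchors of wild-type cells, lists that had no part in the choice of the region. Of the 51 missing partners 64.7% (51.0 to 76.4) did, and of the 38 kept ones 52.6% (37.3 to 67.5), with intervals that overlapped. Of the 53 partners at 0 h that were at such an anchor 33 were missing at 24 h, and of the 36 elsewhere 18 were. Fewer were no longer listed as an anchor of any loop at 24 h, 21 of the 53 and 12 of the 36. On that measure, over all 0 h anchors of the list, the share was 65.6% (64.6 to 66.5) at a wild-type CTCF or RAD21 anchor. For the other 0 h anchors it was 58.2% (57.3 to 59.1). Within 300 kb, 9 of the 11 hub partners at such an anchor and 7 of the 17 others were no longer joined to the hub. Over all 53 partners at such an anchor, at any distance, the summed count went from 412 at 0 h to 166 at 24 h, and over the 36 others from 398 to 416. No test was made, as partners of 1 site in 1 library are not replicates.

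Upstream of the hub, the loop with the highest count of the region in both CTCF-AID lists ran to the 47.288-Mb site, over 65.9 kb, and had counts of 72 (56.3 to 90.7) at 0 h and 125 (104 to 149) at 24 h. The anchor there was 47287547 to 47289267 at 0 h and 47287508 to 47289267 at 24 h. This site was not an anchor in the wild-type ZNF143 list. The 47.292-Mb site next to it had hub counts of 15 in wild-type cells, 26 at 0 h and 47 at 24 h. At the 47.218-Mb site they were 9, 31 and 46, and at the 47.249-Mb site 16, 22 and 28. The hub count at 24 h was 1.74 times that at 0 h at the 47.288-Mb site, 1.81 times at the 47.292-Mb site, 1.48 times at the 47.218-Mb site and 1.27 times at the 47.249-Mb site. Their exact binomial intervals were 1.29 to 2.35, 1.10 to 3.04, 0.921 to 2.42 and 0.702 to 2.33, and the last 2 included equal counts. These ratios are a description. The ratio of 0.719 for the summed count of the list takes in loops that were not kept. Over the 88 region loops of 0 h found at 24 h, the median ratio was 1.23, with 47 higher, 24 lower and 17 equal. None of the 4 sites was an anchor in the wild-type CTCF or RAD21 list, and the 47.288-Mb site was one in the CTCF list of ZNF143KO cells. The 47.218-Mb site, however, directly adjoins a wild-type CTCF anchor at 47218989 to 47221421.

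Beside them, the site at 47250892 to 47254422 (47.253 Mb) had a hub count of 11 in wild-type cells and 39 at 0 h and was no anchor at 24 h. It was an anchor in all 4 CTCF and RAD21 lists. With anchors extended by 5 kb its hub loop met that of the 47.249-Mb site. The 47.165-Mb site, also an anchor in all 4, had hub counts of 10, 22 and none. The 47.232-Mb site had 10 at 0 h alone and was in none of the CTCF or RAD21 lists, so a missing partner was not always at a CTCF or RAD21 anchor. The 47.259-Mb site, a CTCF anchor in wild-type cells, was kept, with hub counts of 11, 23 and 16.

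Downstream, the 47.552-Mb site (47551281 to 47552989) had hub counts of 31 in wild-type cells, 46 (33.7 to 61.4) at 0 h and 60 (45.8 to 77.2) at 24 h. It was a hub in its own right, with 31, 43 and 38 partners, and ranked 30, 44 and 48 in its lists. At the 47.615-Mb site the hub count was 12 at 0 h and 31 at 24 h, and at the 47.732-Mb site it was 10 in wild-type cells, 29 at 0 h and 47 at 24 h. The 47.525-Mb site had 7, 17 and 14, and the 47.539-Mb site 6, 15 and 18.

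Inside the region, the downstream partners of 0 h that were missing at 24 h were the 47.429-Mb site (hub count 26 at 0 h), the 47.495-Mb site (33), the 47.536-Mb site (20, with the kept 47.539-Mb site within 5 kb), the 47.583-Mb site (6), the 47.629-Mb site (18) and the 47.634-Mb site (29). Of these 6, the 47.429-Mb site alone was not an anchor in a CTCF or RAD21 list of wild-type cells. The 47.429-Mb site was in no list other than that of 0 h.

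**Figure D3:**
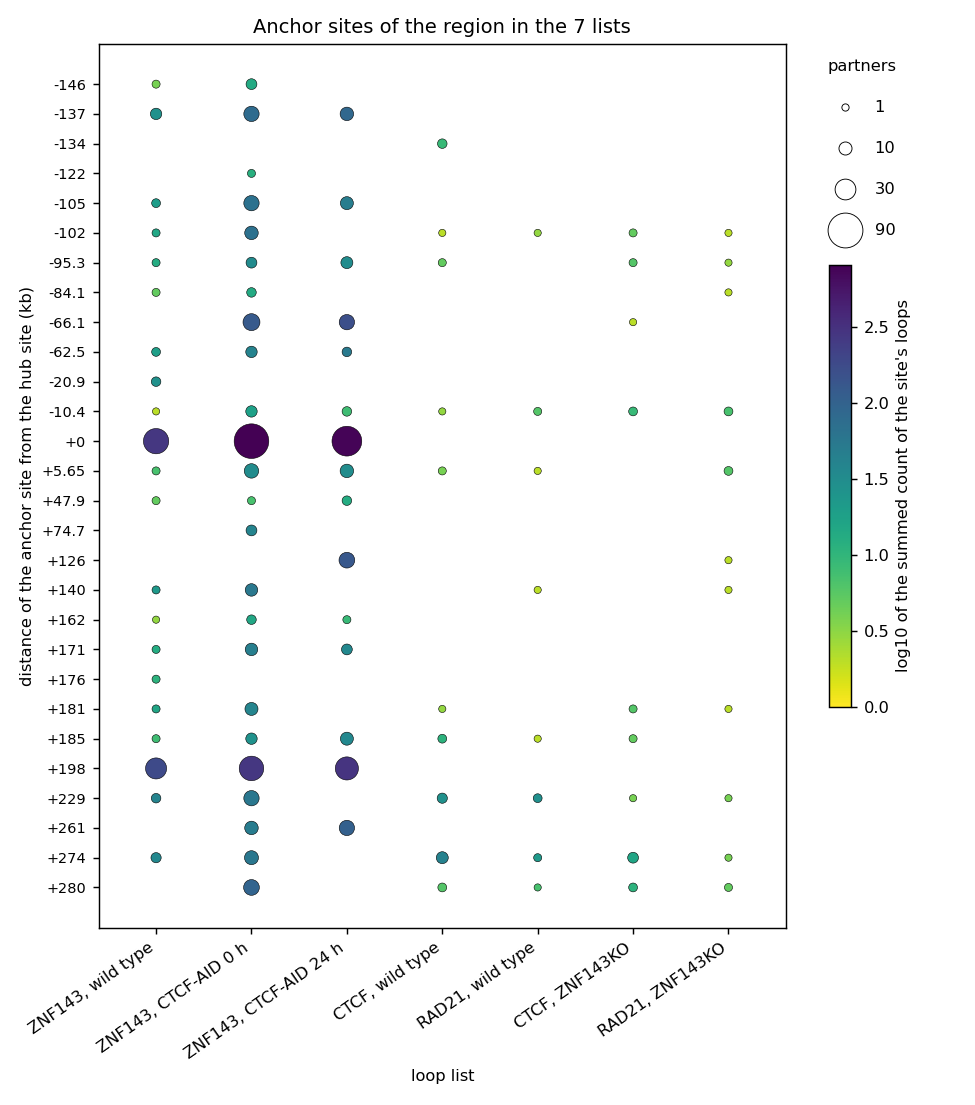
The 28 merged anchor sites of the region (rows, labelled with the distance from the hub site in kb) in the 7 lists (columns, 1 library each), with dot area growing with the number of partners and colour giving the log10 summed count of the site's loops. The 24 h column lacks 10 of the 24 sites of the 0 h column and holds 1 that the 0 h column lacks, at 126 kb.

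Over the region as a whole, anchors were exchanged mainly by loss. Of the 28 merged sites, 27 were in a ZNF143 list, 14 in a CTCF or RAD21 list and 13 in both kinds. The 0 h list held 24 sites and the 24 h list 15, of which 14 were shared, and the 47.480-Mb site was the only addition. Missing at 24 h were 6 of the 10 sites at a wild-type CTCF or RAD21 anchor and 4 of the 14 others. The shares over all 0 h anchors, given above, were 65.6% and 58.2%. Conversely, 13.1% (12.4 to 13.8) of all 24 h anchors were absent at 0 h, and 1 of the 15 in the region was.

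The region held a larger share of the loops in each ZNF143 list than in each CTCF or RAD21 list. The 0 h and 24 h lists served to choose it. It held 90 of 11981 ZNF143 loops in wild-type cells (0.751%, 0.612 to 0.922), 267 of 40405 at 0 h (0.661%, 0.586 to 0.745) and 184 of 20587 at 24 h (0.894%, 0.774 to 1.03). By contrast it held 21 of 19313 CTCF loops (0.109%, 0.0711 to 0.166) and 7 of 16788 RAD21 loops (0.0417%, 0.0202 to 0.0861) in wild-type cells. In ZNF143KO cells there were 14 of 15597 CTCF loops (0.0898%) and 9 of 10804 RAD21 loops (0.0833%). Chromosome 19 as a whole showed the same order, with 24.6%, 19.7% and 28.5% of the ZNF143 loops and between 4.92% and 5.87% of the loops in the CTCF and RAD21 lists. Within that chromosome the region held 3.05% to 3.36% of the ZNF143 loops and 0.847% to 1.85% of the others.

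**Figure D4:**
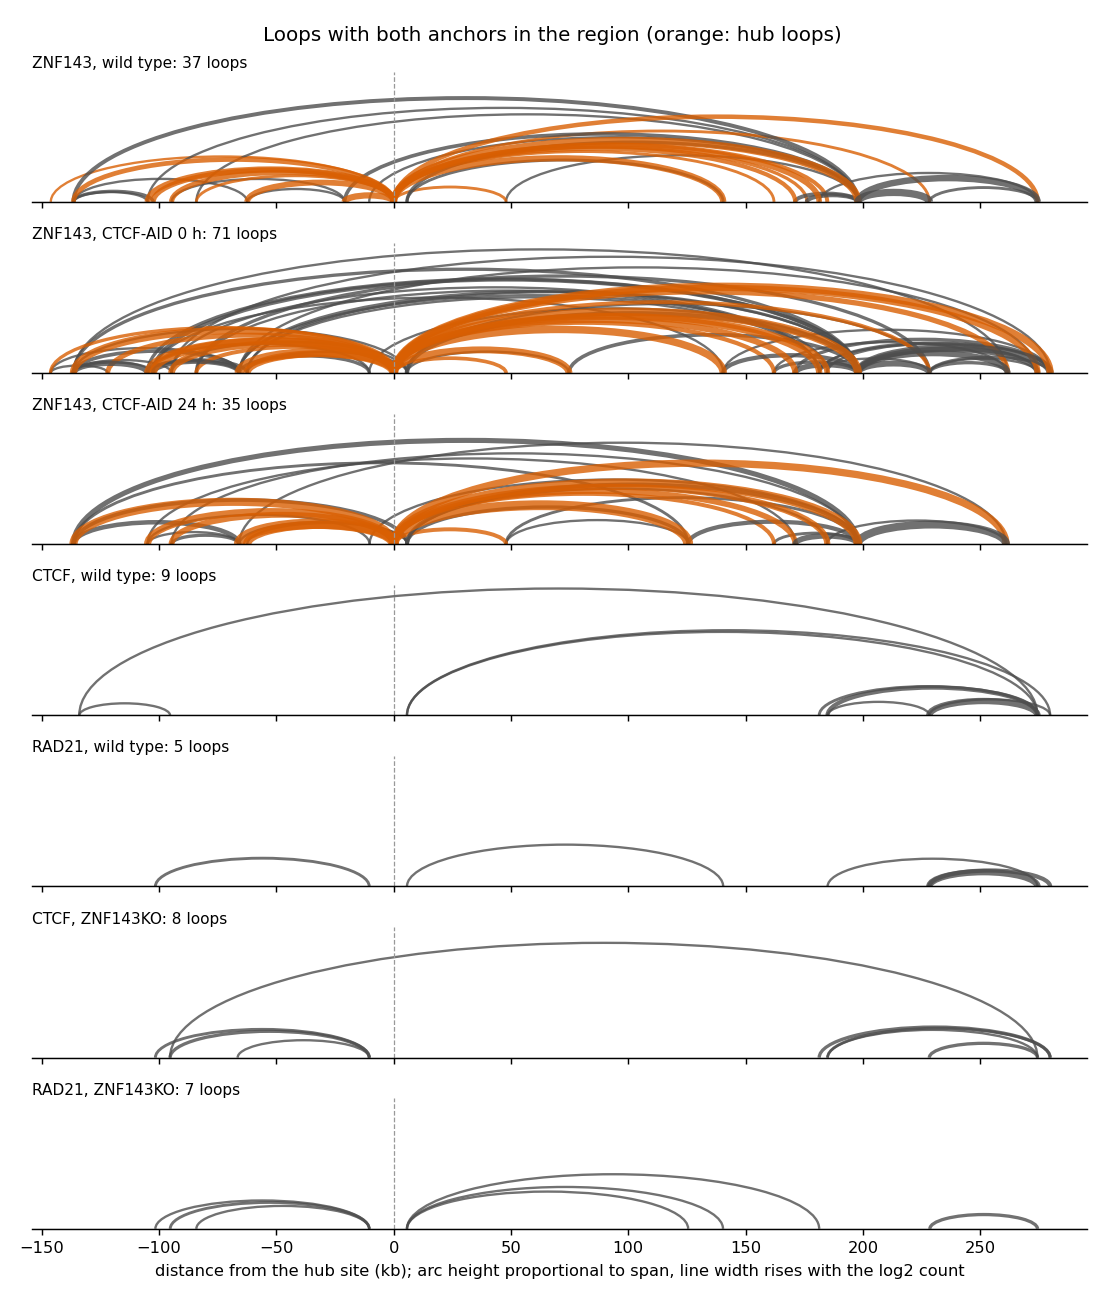
Loops with both anchors inside the region in the 7 lists, 1 library each, drawn as arcs over the distance from the hub site in kb (x axis), with arc height proportional to span and line width rising with the log2 count. Orange arcs end at the hub site, and they appear in the ZNF143 lists and in none of the 4 CTCF and RAD21 lists.

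Few ZNF143 loops of the region coincided with CTCF or RAD21 loops. A loop was called found in another list where both its anchors, extended by 5 kb, overlapped those of a loop there. In wild-type cells 10 of 90 region loops were found in the CTCF or the RAD21 list (11.1%, 6.15 to 19.3), against 22.6% of the whole ZNF143 list. At 0 h it was 21 of 267 (7.87%, 5.20 to 11.7), against 14.8%, and at 24 h 1 of 184 (0.543%, 0.096 to 3.01), against 7.82%. The intervals treat loops as independent, although 46 of the 90, 89 of the 267 and 65 of the 184 loops ended at the hub. The hub itself was an anchor of no CTCF or RAD21 loop. These 3 intervals did not include the shares of the lists. That did not hold for loops with both anchors inside the region, of which 6 of 37 in wild-type cells (16.2%, 7.65 to 31.1), 12 of 71 at 0 h (16.9%, 9.94 to 27.3) and 1 of 35 at 24 h (2.86%, 0.506 to 14.5) were found, with intervals that included the shares of the lists.

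At 24 h, 95 of the 184 region loops were not found at 0 h (51.6%, 44.5 to 58.7), against 54.6% of the list. The contrast served to choose the region, and nothing is read from this share. Of the 23 region loops that reached a count of 10 at 24 h, 2 were gained, against 7.35% in the whole list. They were the loop to 47.480 Mb and a loop from 47.552 Mb to 47790996 to 47793895 with a count of 12. Of the 32 region loops that reached a count of 10 at 0 h, 13 were not found at 24 h, against 26.4% of such loops in the whole list, and the loops to 47.495 Mb (33) and to 47.634 Mb (29) had the highest counts. Away from the hub, the loop from 47.552 to 47.732 Mb had counts of 11 in wild-type cells, 23 at 0 h and 50 at 24 h, and the loop from 47.552 to 47.615 Mb had 18 at 0 h and 40 at 24 h.

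Region loops were longer at 24 h. The median span was 224 kb in wild-type cells, 429 kb at 0 h and 956 kb at 24 h, while the whole lists had medians of 144, 236 and 300 kb. Loops found at both times had a median of 434 kb in the 0 h list, those of 0 h not found at 24 h 424 kb and those of 24 h not found at 0 h 1231 kb. Of the 184 loops at 24 h 111 had a count of 2, the lowest that is listed.

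Wild-type cells and CTCF-AID cells at 0 h of auxin were compared next. Of the 90 wild-type region loops 21 were not found at 0 h (23.3%, 15.8 to 33.1), against 40.4% of the list. Of the 267 loops at 0 h 189 were not found in wild-type cells (70.8%, 65.1 to 75.9), against 80.6%. The ratio of region loop numbers, 0 h to wild-type, was 2.97 (2.33 to 3.81), against 3.37 for the whole lists. With the CTCF-AID counts halved, and loops then under a count of 2 left out, the ratio was 1.03 and the share of 0 h loops not found in wild-type cells was 44.1%. Per 100000 listed counts the region had 944 in wild-type cells, 960 at 0 h and 1158 at 24 h.

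The wild-type loop with the highest count that was not found at 0 h joined 47332439 to 47334319 to the hub with a count of 19 over 20.9 kb. The site of that loop was an anchor in the wild-type ZNF143 list alone. The next highest count was 5, shared by 3 loops, of which the loop from 47.552 to 47.653 Mb had the shortest span. In the other direction, the 0 h loop from the hub to 47.429 Mb (count 26) was not found in wild-type cells. The loop from 47.552 Mb to 47581837 to 47583358 (47.583 Mb) had counts of 31 in wild-type cells and 16 at 0 h, and at 24 h the 47.583-Mb site was no anchor. The loop from 47.552 to 47.629 Mb had counts of 21 in wild-type cells and 14 at 0 h, and the 47.629-Mb site was likewise no anchor at 24 h.

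CTCF and RAD21 loops of the region were few and mostly weak, and in wild-type cells those with the highest counts lay away from the hub. The loop from 47.583 to 47627985 to 47629410 (47.629 Mb) had a count of 20 (12.2 to 30.9) for CTCF and 20 for RAD21 in wild-type cells and 4 (1.09 to 10.2) for each in ZNF143KO cells. It was the region loop listed in most libraries, 6 of 7, and also carried ZNF143, with counts of 3 in wild-type cells and 2 at 0 h. Between the whole lists the summed count in ZNF143KO cells was 0.573 times that of wild-type cells for CTCF and 0.450 times for RAD21. The loop from 47.539 to 47.629 Mb had CTCF counts of 7 in wild-type and 2 in ZNF143KO cells. For RAD21 it was listed in the wild type, at 2, and not in ZNF143KO cells. Between 47.583 and 47.634 Mb RAD21 had a count of 7 and CTCF 2 in the wild type, and neither was listed between these sites in ZNF143KO cells. With 5 kb added to the anchors this RAD21 loop was matched in ZNF143KO cells by a loop with a count of 4, and so was the CTCF loop from 47.539 to 47.629 Mb, so both count as found in the shares below.

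Other CTCF and RAD21 loops had counts of 2 to 4. CTCF joined 47.629 to 47.751 Mb with a count of 4 in both genotypes. Between 47.536 and 47.634 Mb it had 4 in ZNF143KO cells alone. With 5 kb added to the anchors, that loop was matched in the wild type by CTCF loops to 47.629 Mb, so it counts as found in the shares below. Between 47.634 and 47.751 Mb CTCF had 2 in the wild type and 4 in ZNF143KO cells, and RAD21 had 3 in the latter alone. CTCF loops from 47.118 to 47.220 Mb and from 47.629 to 47.732 Mb had 3 each in the wild type and were not listed in ZNF143KO cells. From the 47.360-Mb site next to the hub, wild-type CTCF reached the 47.629-Mb and 47.634-Mb sites with a count of 2 each, and RAD21 in ZNF143KO cells reached the 47.536-Mb site with 2.

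Of the 21 CTCF loops of wild-type cells 13 were not found in ZNF143KO cells (61.9%, 40.9 to 79.2), against 60.9% of the list, and of the 14 in ZNF143KO cells 7 were not found in wild-type cells (50.0%, 26.8 to 73.2), against 52.9%. For RAD21 3 of 7 were not found in ZNF143KO cells (42.9%, 15.8 to 75.0), against 65.9%, and 5 of 9 were not found in wild-type cells (55.6%, 26.7 to 81.1), against 49.1%. All 4 shares of the region had intervals that included the share of the whole list.

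At the 47.344-Mb site, 10.4 kb from the hub, loops of both genotypes ended, and their listed partners differed in part. The loop from 47.118 to 47.344 Mb had a count of 3 for CTCF and 3 for RAD21 in the wild type and was listed in neither ZNF143KO library. The loop from 47.259 to 47.344 Mb had a CTCF count of 4 and a RAD21 count of 3 in ZNF143KO cells, and in the wild type no loop was listed between these sites. From 47.270 to 47.344 Mb RAD21 had 2 in ZNF143KO cells alone. From 47.288 to 47.344 Mb CTCF had 2 in ZNF143KO cells, and ZNF143 had 4 at 0 h. The loop from 47.253 to 47.344 Mb had a CTCF count of 3 and a RAD21 count of 2 in ZNF143KO cells. In the wild type RAD21 had 3 there and CTCF was not listed. With 5 kb added to the anchors, this wild-type RAD21 loop also matched the RAD21 loop of ZNF143KO cells from 47.259 to 47.344 Mb. The latter thus counts as found in the shares above. The 47.344-Mb site had 1 CTCF and 2 RAD21 loops in wild-type cells and 3 of each in ZNF143KO cells. Counts of 2 to 4 lie at the floor of the lists, and the interval of a count of 4, from 1.09 to 10.2, reached below 2.

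The edges of the region cut through connected chromatin. Just inside were the 47.208-Mb site, with 2 loops in wild-type ZNF143 and 6 at 0 h, and the 47.634-Mb site, with 16 loops at 0 h. Just outside were the 47.165-Mb site, with 4 and 11 loops in the same ZNF143 lists, and the 47.653-Mb site, with 2 in wild-type ZNF143 and none at 0 h.

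Because of the even counts, wild-type and CTCF-AID lists were not taken to share a scale.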

How the data were processed

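For every library the authors deposited a list of anchor pairs with a whole-number count per loop, not scaled to a common depth. HiC-Pro and build hg19 are named in the submitters' processing notes, while the loop caller, filters and pooling are not given in the sources used here. The wild-type ZNF143 list and both ZNF143KO lists had 7 columns and the other lists 8, so list layout and genotype cannot be told apart in the ZNF143KO comparisons. Layout differed as well between the wild-type ZNF143 list and the CTCF-AID, wild-type CTCF and wild-type RAD21 lists it was compared with. Listed totals ran from 33460 to 143119 and are sums over listed loops, not library depths, which are unknown. Spans ran from 20.0 kb to 2.00 Mb.

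Loops were matched as described, with an overlap of at least 1 bp after extending the anchors of the first list by 5 kb, and the highest count of a matching loop was used. Anchors that overlapped in any list were merged into sites without extension. Shares carry Wilson and counts exact Poisson 95% intervals, and ratios of loop numbers or of hub counts carry exact binomial ones. All cover counting error only. Neither PCR copies of a molecule nor loops of a shared anchor are independent. Positions count from 1. The matching was tested on simulated lists. Python 3.11.15, pandas 2.3.3, numpy 2.4.6 and scipy 1.17.1 were used.

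Loops were named by rule: those at the gained loop's anchors (the 5 with the highest count where a list had over 12), the 3 with the highest count per list, and the 2 kept, lost and gained loops with the highest count per pair of lists. Partners of the hub beyond this rule were named after their values were seen. The distances of 300 kb and 25 kb and the class of 30 partners were also set then. Members and lists were chosen with earlier results of these data known.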

Additional observations from a re-analysis of the deposited data

How the results depend on the processing

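Across 204 recomputed values of 50 results, 129 stayed within the interval, or for numbers within 1.5 times, of the reported value, 72 moved outside and 3 changed direction. No paired analysis was possible because each group had 1 library. Minimum counts and both anchors inside the region take away loops by construction. For other changes the cause was not tested. List order is wild-type, 0 h and 24 h ZNF143, wild-type CTCF and RAD21, ZNF143KO CTCF and RAD21.

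Region loops numbered 55, 104, 73, 8, 4, 7 and 3 at a minimum count of 3, and 28, 60, 42, 2, 2, 0 and 0 at 5. Halved CTCF-AID counts gave 93 at 0 h and 63 at 24 h. With both anchors inside, the first 4 lists had 37, 71, 35 and 9 and ZNF143KO CTCF had 8. The share of the list was 0.950% and 0.831% in the wild-type and 0 h lists at a minimum of 3, and 1.10% and 1.06% at 5. At 5 it was 0.0488% for wild-type CTCF and 0 for both ZNF143KO lists. Halving gave 0.883% at 0 h. With both anchors inside the shares were 0.309%, 0.176%, 0.170% and 0.0466% in the first 4 lists and 0.0513% in ZNF143KO CTCF.

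The RAD21 ratio of region loops in ZNF143KO to wild-type cells, 1.29 (0.426 to 4.06), changed direction to 0.75 at a minimum of 3 and to 0 at 5, and the CTCF ratio of 0.667 became 0 at 5. The ratio of 24 h to 0 h, 0.689 (0.568 to 0.835), was 0.493 with both anchors inside and changed direction to 1.21 as summed count per 100000 listed counts. The ratio of 0 h to wild-type was 1.89 at a minimum of 3, 2.14 at 5, 1.03 with halved counts, 1.92 with both anchors inside and 1.02 per 100000 listed counts.

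At a minimum of 5, 100% of the 2 wild-type CTCF and of the 2 RAD21 loops left were not found in ZNF143KO cells. Of 0 h loops 73.8% were not found at 24 h without extension, 59.9% with 10 kb and 56.7% at a minimum of 5. Of 24 h loops 62.0% were not found at 0 h without extension, 42.9% at a minimum of 5 and 31.4% with both anchors inside. Of wild-type ZNF143 loops 33.3% were not found at 0 h without extension and 40.0% with halved counts. Of 0 h loops 78.3% were not found in wild-type cells without extension, 59.6% at a minimum of 3, 55.0% at 5, 44.1% with halved counts and 45.1% with both anchors inside.

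The share of wild-type ZNF143 loops found for CTCF or RAD21 was 4.44% without extension, 1.82% at a minimum of 3 and 0 at 5. At 0 h it was 2.62%, 0 at 5 and 16.9% with both anchors inside, which is above the 14.8% of the whole list. At 24 h it was 0 without extension, at minimums of 3 and 5 and with halved counts.

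The gained loop kept its count of 95, and stayed unlisted at 0 h and in wild-type cells, with each extension and with midpoints within 10 kb. Its match at 5 kb in the RAD21 list of ZNF143KO cells (count 2, by the 47.360-Mb site) was 0 without extension. With 5 kb added, the summed count at the hub took in the 47.360-Mb site and was 4 for wild-type CTCF, 2 for wild-type RAD21 and 6 for ZNF143KO RAD21, all 0 without extension. At 10 kb, wild-type RAD21 had 8, and ZNF143KO CTCF had 9, against 0 at 5 kb for the latter.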
